A study of Equus caballus with 4 samples.

Results

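Genes that act for or against the exit of cells from the division cycle were followed in equine satellite cells that had been given gamma-oryzanol (GO). The genes are the antiproliferative BTG genes *btg1*, *btg2* and *btg3*, the cyclin-dependent kinase (CDK) inhibitors *cdkn1a*, *cdkn1b*, *cdkn1c* and *cdkn2c*, the retinoblastoma gene *rb1*, and the D cyclins *ccnd1* and *ccnd3*. Their probes were taken by name, as the noncontrol probes that the array files name BTG1, BTG2, BTG3, CDKN1A, CDKN1B, CDKN1C, CDKN2C, RB1, CCND1 or CCND3, in any case of letters. This gave 20 of the 43603 different probes, for 8 of the 10 genes. No probe carried the name *cdkn1c* or *ccnd1*, and these genes were not analysed here under their names.

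Satellite cells are the stem cells of skeletal muscle, and the cultures used were primary horse cells on the third day of differentiation. Treated cells received 125 nM GO, a mixture of plant sterol esters from rice bran, for 24 h, and control cells received only its solvent, DMSO, at 0.04 μl/ml. Each of 4 two-color arrays on 1 slide compared RNA from GO-treated cells, labeled with Cy5, with RNA from control cells, labeled with Cy3. The dyes were not exchanged on any array, so the effect of the dye on a probe and that of GO cannot be told apart. The study's methods say that cultures of several horses were scored and that the best line was used further, which points to 1 line. They also say that cells of each isolation were put in separate wells. For the arrays, 4 RNA samples were picked from a larger number by their integrity. Whether these 4 came from separate cultures of that line is not said. The errors given are the spread between these arrays, which may be technical. The arrays read all RNA of a culture, so fewer cells of a type and less of a transcript per cell cannot be told apart.

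Muscle precursor cells must leave the cell cycle before they fuse into fibers. D cyclins switch on the kinases CDK4 and CDK6, which phosphorylate the retinoblastoma protein and so release E2F transcription factors that drive DNA synthesis. CDK inhibitors block these kinases, p18 (*cdkn2c*) by binding CDK4 and CDK6 themselves, and p21 (*cdkn1a*), p27 (*cdkn1b*) and p57 (*cdkn1c*) by binding complexes of a cyclin with its kinase. The BTG proteins slow growth by another route, since they bring the CCR4-NOT deadenylase to mRNAs and act with transcription factors. In differentiating muscle cells p21, p57, the retinoblastoma protein and cyclin D3 are known to rise, while cyclin D1 falls.

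The probes are 60 bases long, and their placement decides how far several probes of a gene count as separate readings. The 5 *btg1* probes are shown because all of the *btg1* values rest on them. They lie on the minus strand of EquCab1 at chr28:17666178-17666241, a window of 64 bases, and each is moved by 1 base from its neighbor. Capitals mark the run of 56 bases that all 5 share.
btg1, brightest probe: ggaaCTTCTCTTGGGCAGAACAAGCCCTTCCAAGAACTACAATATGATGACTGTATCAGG
btg1, probe b: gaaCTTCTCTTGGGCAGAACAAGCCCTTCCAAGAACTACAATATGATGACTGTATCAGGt
btg1, probe c: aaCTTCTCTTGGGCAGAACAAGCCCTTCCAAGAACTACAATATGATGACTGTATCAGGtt
btg1, probe d: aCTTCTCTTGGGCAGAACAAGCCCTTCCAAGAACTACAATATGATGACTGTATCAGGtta
btg1, probe e: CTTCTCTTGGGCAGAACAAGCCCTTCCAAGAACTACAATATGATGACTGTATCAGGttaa
The 5 probes therefore read 1 stretch of the transcript and are not 5 independent measurements of *btg1*. The 5 *cdkn1b* probes are placed in the same way, on the plus strand at chr6:40733798-40733861. The first and the last of them are shown, with the 56 bases common to all 5 in capitals.
cdkn1b, first probe: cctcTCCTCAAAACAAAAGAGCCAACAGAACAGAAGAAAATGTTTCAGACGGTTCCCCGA
cdkn1b, last probe: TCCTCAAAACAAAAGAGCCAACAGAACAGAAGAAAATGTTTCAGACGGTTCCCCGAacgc

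Because *btg1* and *btg2* are related genes, the probe of each that ends in the letters of a stop codon was set beside the other without gaps, last base against last base. Capitals mark the bases that are identical in both.
btg1, probe e: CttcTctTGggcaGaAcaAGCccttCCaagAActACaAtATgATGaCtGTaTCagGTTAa
btg2, dimmer probe: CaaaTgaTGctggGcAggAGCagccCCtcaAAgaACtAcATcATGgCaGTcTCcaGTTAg
Of the 60 bases 30 were identical in this placement, and the longest run found in both probes was 10 bases. That run stands at a different position in each probe, so the capitals do not show it as a run. A placement with gaps was not tried, and the count of 30 may therefore understate how alike the probes are. The dimmer *btg2* probe lies on the plus strand at chr5:77305-77364. The brighter *btg2* probe lies 2021 bases further on, at chr5:79386-79445, and starts 589 bases later in the transcript, at position 1015. The *cdkn1a* probe, on the plus strand, spans 1421 bases of the genome, at chr20:30004703-30006123, so its 60 bases cross a gap. The single probes of *cdkn1a* and *ccnd3* are shown because each is the only reading of its gene, with the last 3 bases of *cdkn1a*, the letters of a stop codon, in capitals. The *ccnd3* probe lies on the minus strand at chr20:34656540-34656599.
cdkn1a: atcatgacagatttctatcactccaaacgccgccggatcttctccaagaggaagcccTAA
ccnd3: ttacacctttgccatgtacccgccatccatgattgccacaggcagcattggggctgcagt
Whether the probes lie in coding or untranslated sequence was not read from an annotation, since none of EquCab1 was used here.

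GO-treated cells had less *btg1* and *ccnd3* RNA than control cells and gave a higher signal on the brighter *btg2* probe, while no probe of the CDK inhibitors or of *rb1* passed both thresholds. The thresholds were an adjusted p of at most 0.05 from limma's moderated test, over the 26833 probes well above background in at least 1 channel on all 4 arrays, and a fold change of at least 1.3, which is 0.38 on the log2 scale. All 20 probes entered this test. Past both thresholds, 6 of them were lower in GO-treated cells, namely the 5 of *btg1* and that of *ccnd3*, and 1 was higher. Over all probes tested, 5.61% were lower and 3.33% were higher by the same rule, 8.94% in all. By the adjusted p alone 8 of the 20 passed, beside 18.1% of all probes tested. Counted by the brightest probe of each gene, 2 of 8 genes were lower and 1 was higher, beside 5.37% and 3.31% of the 9494 named genes tested. The median log2 ratio of GO over control was -0.20 over the 20 probes and 0.0047 over all probes tested. Of the 20 probes 14 were below 0 on all 4 arrays, as were 21.5% of all probes tested. Of the 8 brightest probes 6 were, beside 21.0% of the named genes tested. The counts over probes give *btg1* a weight of 5 for 1 stretch of RNA, and the 8 genes were chosen with results of these arrays known.

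**Figure D1:**
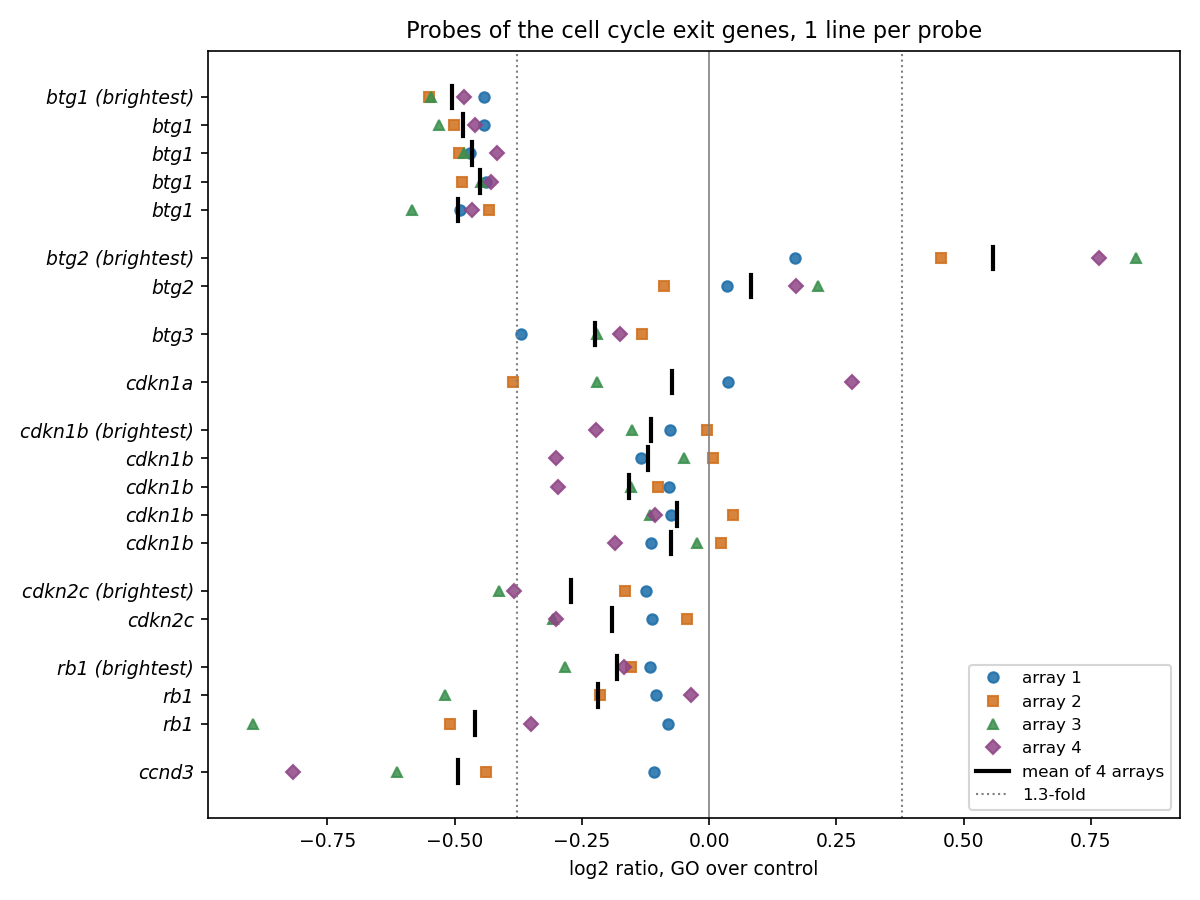
The horizontal axis gives the log2 ratio of GO over control, and each line is 1 of the 20 probes, grouped by gene, with 1 symbol per array, a black bar for the mean of the 4 arrays and dotted lines at 1.3-fold. The 5 *btg1* probes lie together between -0.58 and -0.42 on every array, while the values of *ccnd3* are spread between -0.82 and -0.11.

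The product of *btg1* binds the CAF1 subunit of CCR4-NOT and restrains growth in several cell types, muscle precursors included. On the brightest *btg1* probe the processed signal in control cells was 901, 898, 859 and 751 on arrays 1 to 4. In GO-treated cells it was 663, 614, 588 and 537. The GO values all lay below the lowest control value, so the groups did not overlap. The log2 ratio was -0.44, -0.55, -0.55 and -0.48, with a mean of -0.51 ± 0.053 (SD, n = 4), and control cells had 1.42 times the signal of GO-treated cells (adjusted p = 0.0046, limma). The other probes of the set gave means from -0.49 to -0.45, with adjusted p between 0.0048 and 0.0054. The study also reported lower *btg1* in GO-treated cells by qPCR, on RNA of the same experiment. It had picked *btg1* as a changed gene from these arrays, so the fall of *btg1* here is not independent evidence. Its call held when any 1 array was left out, but not when the channels were treated as unpaired samples (adjusted p = 0.0723).

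A further probe, chosen after its values were seen, is described in the files as mRNA of a BTG1-like protein (BTG1). It carries an accession in place of a gene name. Its signal was 7654 to 12339 in control cells and 6064 to 8611 in GO-treated cells, well above that of the probes named *btg1*. It lies on the same strand at chr28:17665400-17665459, 718 bases from the *btg1* probes, and shares no run longer than 5 bases with any of them. Its log2 ratio was -0.70, -0.34, -0.35 and -0.25 on the 4 arrays, with a mean of -0.41 ± 0.20 (SD, n = 4; adjusted p = 0.0247, limma). It was thus lower in GO-treated cells on every array, but by clearly more on array 1 than on the others. Its call was lost without array 1, where the mean of -0.31 was under the fold threshold, and without array 2 or 3, with adjusted p of 0.0777 and 0.0723. Centring the arrays on their medians in place of lowess gave -0.33 (adjusted p = 0.0754).

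*Btg2* is an immediate early gene and a known target of p53, and its product also acts through CCR4-NOT. On its brighter probe the control signal was 431, 333, 299 and 252, and the GO signal was 485, 456, 534 and 429. Every array had the higher value in GO-treated cells, although the groups overlapped slightly, the highest control value (array 1) lying just above the lowest GO value (array 4). The log2 ratio was 0.17, 0.46, 0.84 and 0.77, with a mean of 0.56 ± 0.31 (SD, n = 4), a 1.47-fold rise with a 95% interval from 1.21 to 1.78 (adjusted p = 0.0245, limma). Array 1 stood lowest, and arrays 3 and 4 were highest. The dimmer probe had a signal of only 3.89 times its local background in control cells and 4.05 times in GO-treated cells, and gave 0.034, -0.090, 0.21 and 0.17. Its mean of 0.082 ± 0.14 (SD, n = 4) did not pass (adjusted p = 0.448), and median centring brought it to -0.0014.

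The *btg2* probes therefore gave different readings of the gene. Their difference within an array was 0.13, 0.55, 0.62 and 0.60, positive on 4 of 4 arrays with a mean of 0.47 ± 0.23 (SD), and the exact sign-flip test gave p = 0.13, the smallest value that 4 arrays allow. With the mean of both probes as the value of the gene, the ratio was 0.32 and did not pass (adjusted p = 0.0530). The call of the brighter probe was lost without array 2, 3 or 4, with adjusted p of 0.0742, 0.0812 and 0.0602, and was kept without array 1, where the mean was 0.69.

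*Btg3* codes for a more distant member of the family. Its 1 probe, on the plus strand at chr26:25568917-25568976, had signals of 9195, 5806, 9761 and 7866 in control cells and 7112, 5298, 8382 and 6970 in GO-treated cells. The groups overlapped, but the GO value was the lower one on each array. The log2 ratio was -0.37, -0.13, -0.22 and -0.17, with a mean of -0.22 ± 0.10 (SD, n = 4; adjusted p = 0.0550, limma), which missed both thresholds.

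Within the family the log2 ratio of the brighter *btg2* probe was above that of the brightest *btg1* probe by 1.06 ± 0.34 (SD, n = 4), and that of *btg3* was above it by 0.28 ± 0.15. Both differences had 1 sign on 4 of 4 arrays. With exact sign-flip tests, two-sided, each gave p = 0.13, and 0.167 after adjustment over the 4 differences tested, so that this design could not bring them under the threshold.

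**Figure D2:**
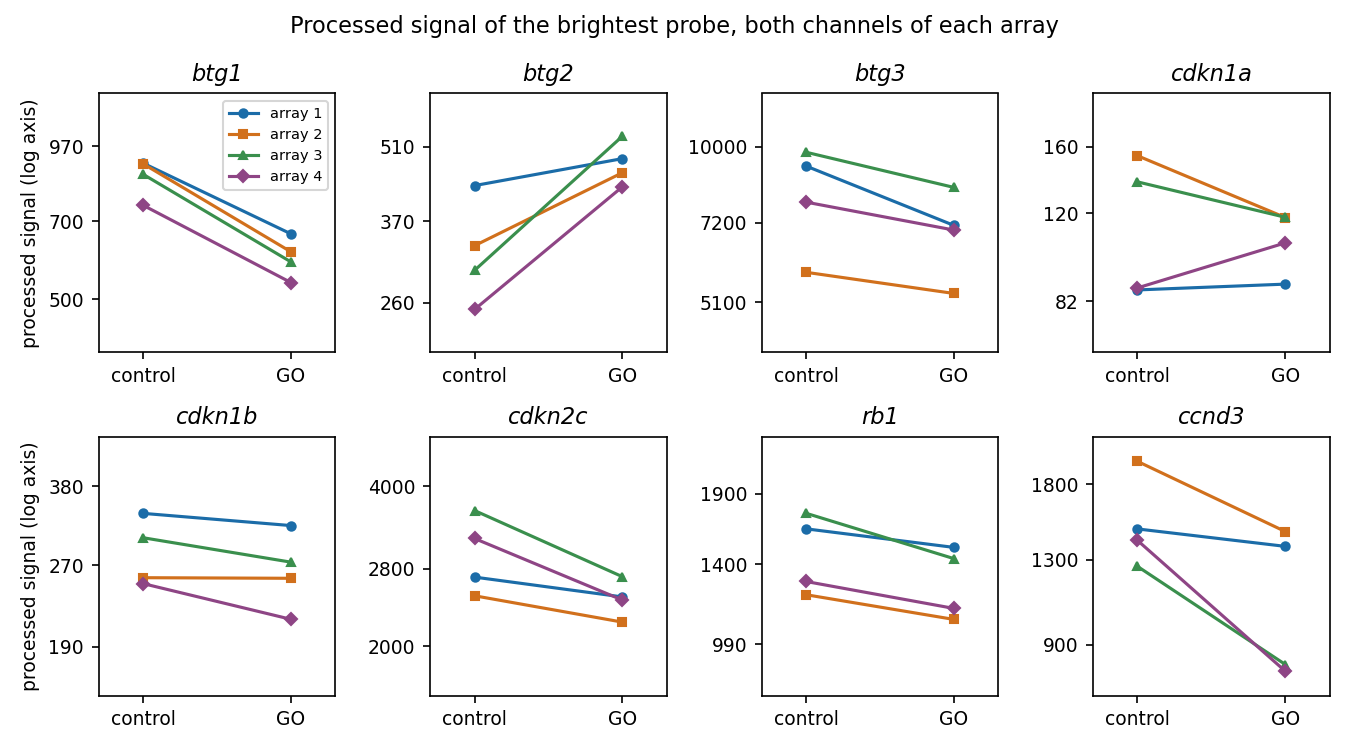
Each panel shows the processed signal (vertical log axis, scaled per gene but with the same span of folds) of the brightest probe of 1 gene in control and GO-treated cells, with 1 line per array. The 4 lines of *btg1* run downward in parallel and those of *btg2* run upward, whereas the lines of *cdkn1a* go both ways.

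None of the 8 probes of the CDK inhibitors passed both thresholds with limma, nor with the plain one-sample test. At an unadjusted p under 0.05, limma passed 1 of the 5 *cdkn1b* probes, both *cdkn2c* probes and not that of *cdkn1a*. Over all 26833 probes tested, 9580 had an unadjusted p under 0.05 in limma. For *cdkn1a*, the p21 gene that MyoD switches on in differentiating muscle, the control signal was 86.0, 154, 137 and 86.8 and the GO signal was 88.2, 118, 118 and 105. The log2 ratio was 0.036, -0.39, -0.22 and 0.28, so that 2 arrays were higher and 2 were lower. The mean of -0.072 ± 0.29 (SD, n = 4) had a 95% interval from -0.34 to 0.20 (adjusted p = 0.683, limma), that is, from 0.790 to 1.15 times the control signal. The signal was 5.38 times the local background in control cells and 5.05 times in GO-treated cells, and the sign of the mean turned to 0.032 without array 2.

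The 5 probes of *cdkn1b*, the p27 gene that keeps resting cells out of the cycle, gave mean log2 ratios from -0.16 to -0.063, with adjusted p between 0.126 and 0.488. On the brightest of them the control signal was 338, 256, 304 and 249.5, and the GO signal was 321, 255, 274 and 214. Its log2 ratio was -0.076, -0.0037, -0.15 and -0.22, with a mean of -0.11 ± 0.095 (SD, n = 4) and a 95% interval from -0.26 to 0.035.

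*Cdkn2c*, the p18 gene, came closest to a call among the inhibitors. Its probes, on the minus strand at chr2:6551256-6551345, overlap by 30 bases. On the brighter one the control signal was 2700.1, 2490.5, 3601 and 3191, and the GO signal was 2478, 2222, 2705 and 2444.5. The log2 ratio was -0.12, -0.17, -0.41 and -0.38, with a mean of -0.27 ± 0.15 (SD, n = 4), lower on all 4 arrays. It passed the adjusted p (0.0475, limma) but not the fold threshold, as control cells had 1.21 times the signal of GO-treated cells. The other probe gave -0.19 ± 0.13 (adjusted p = 0.104), also lower on all 4 arrays, and arrays 3 and 4 held the larger falls on both probes.

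The product of *rb1* holds E2F factors in check and helps to make the exit from the cycle permanent in muscle. All 3 *rb1* probes, on the minus strand of chromosome 17, were below 0 on each of the 4 arrays. None passed both thresholds by limma on the values reported or by the plain test. At an unadjusted p under 0.05 limma passed 9580 of the 26833 probes tested, among them all 3 of *rb1*. The brightest, at chr17:21403652-21403711, had signals of 1632, 1227, 1746 and 1299.6 in control cells and 1506, 1103, 1435 and 1157 in GO-treated cells, with a mean log2 ratio of -0.18 ± 0.072 (SD, n = 4; adjusted p = 0.0774, limma). The other probes lie 1574 bases or more away, at chr17:21405286-21405345 and chr17:21405366-21405425. They gave -0.22 ± 0.21 (adjusted p = 0.134) and -0.46 ± 0.34 (adjusted p = 0.0512). The last was the dimmest of the *rb1* probes, with a GO signal well above background on 3 of the 4 arrays, and it entered the test through the control channel alone, the channel in which it was higher. Its values ran from -0.90 on array 3 to -0.080 on array 1. With median centring in place of lowess this probe passed both thresholds, at -0.65 (adjusted p = 0.0306), which made 8 probes of the 20 past them, whereas normexp with loess gave -0.21 (adjusted p = 0.0642).

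Cyclin D3 is the D cyclin that stays in muscle cells after they have left the cycle. Its probe had a control signal of 1485, 1989, 1263 and 1413, and a GO signal of 1377, 1468, 826 and 802. The groups overlapped, but within each array the GO value was the lower. The log2 ratio was -0.11, -0.44, -0.61 and -0.82, with a mean of -0.49 ± 0.30 (SD, n = 4), and control cells had 1.41 times the signal of GO-treated cells (adjusted p = 0.0321, limma). The spread was much wider than that of *btg1*, although the means were alike. The log2 ratio of *ccnd3* was above that of *btg1* on 2 arrays and below it on 2, with a mean difference of 0.011 ± 0.28 (SD; exact sign-flip test, p = 1). The call was lost without array 2, 3 or 4, with adjusted p of 0.0971, 0.108 and 0.0708, and was kept without array 1, where the mean was -0.62.

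Cyclin D1 was read by 1 probe that the files describe by the name of the protein and list under a transcript identifier, which was chosen after its values were seen. It lies on the plus strand at chr12:19121563-19124262, spanning 2700 bases of the genome, and is shown so that the target can be traced.
cyclin D1, by description: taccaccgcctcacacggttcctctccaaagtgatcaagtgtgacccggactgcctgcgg
Its log2 ratio was -0.084, -0.13, -0.57 and -0.68, with a mean of -0.37 ± 0.31 (SD, n = 4; adjusted p = 0.0733, limma). It was lower on all 4 arrays and passed neither threshold. *Ccnd2*, the remaining D cyclin, fell on all 3 of its probes. The brightest had control signals between 12125 and 14508 and GO signals between 7174 and 8505, which did not overlap, and log2 ratios of -0.74, -0.60, -0.92 and -0.94. Its mean was -0.80 ± 0.16 (SD, n = 4; adjusted p = 0.0029), and the call held when any 1 array was left out. The brightest or only probe of each D cyclin was thus below 0 on every array, that of cyclin D1 having been chosen after its values were seen. Cyclins D2 and D3 were past both thresholds. Among all named genes tested, 21.0% were lower on all 4 arrays and 5.37% were lower past both thresholds.

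The neighbors of these genes in the same pathways were taken from 8 lists of 133 genes, of which 114 were tested. Past both thresholds, 3 were higher and 8 were lower, which is close to the 8.68% of all named genes tested that were past them in either direction. The median log2 ratio over the 114 genes was -0.055. In the list of BTG and TOB relatives and their deadenylase partners, 1 of 15 genes passed, *cnot6l*, a catalytic subunit of CCR4-NOT (-0.40 ± 0.18, adjusted p = 0.0216, n = 4), on 1 of its 2 probes, the other being at -0.12. The highest of that list was *carm1*, an arginine methyltransferase, at 0.33 ± 0.35 (adjusted p = 0.119). Among the 4 other CDK inhibitors *cdkn2a*, the p16 gene, was lower (-0.39 ± 0.23, adjusted p = 0.0351), and *cdkn3*, a phosphatase of CDKs, was highest at 0.17 ± 0.24. Without any 1 of the 4 arrays *cdkn2a* was no longer past the thresholds, and *cnot6l* was lost without array 1, 2 or 3. With normexp *cdkn2a* was at -0.23 (adjusted p = 0.0639) and *cnot6l* at -0.33, neither past both thresholds.

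Among 9 G1 cyclins and kinases *ccnd2* alone passed, and *mnat1*, a subunit of the CDK-activating kinase, was highest at 0.15 ± 0.20. The list of RB relatives, E2F factors and the DREAM complex had 0 of 16 genes past both thresholds on the brightest probe. An unadjusted p under 0.05 was found for 2 of them. The extremes of this list were *e2f8*, a repressor of the E2F family, at -0.30 ± 0.19 and *e2f4*, the E2F factor of resting cells, at 0.34 ± 0.14 (adjusted p = 0.0240, under the fold threshold). The 4 probes of *e2f4* gave means from 0.29 to 0.50, and 1 of them was past both thresholds. Genes for the turnover of CDK inhibitors and D cyclins had 0 of 15 past both thresholds by limma, with 6 at an unadjusted p under 0.05. They ran from *skp2*, which marks p27 for degradation, at -0.32 ± 0.29 to *fbxo4*, an F-box gene, at 0.27 ± 0.16. An unadjusted p under 0.05 was found in limma for 44 of the 114 list genes and for 9580 of the 26833 probes tested.

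In the list of the p53 response 1 of 14 genes passed, *sesn2*, a stress-induced inhibitor of mTORC1, which was higher by 0.44 ± 0.18 (adjusted p = 0.0174, n = 4). Its signal was only 22.3 to 52.4, and with normexp background correction the mean was 0.079. The lowest of the list was *gadd45g*, a stress gene, at -0.32 ± 0.20. *Btg2* and *cdkn1a*, known targets of p53, gave the 0.56 and -0.072 described above.

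Of 18 transcription factors known to act on *cdkn1a*, *cdkn1b* or *ccnd1*, 2 were higher and 3 were lower past both thresholds on the brightest probe. Among all named genes tested these shares were 3.31% and 5.37%. *Egr1*, an immediate early gene, had the largest rise in these lists, with log2 ratios of 0.79, 1.16, 1.28 and 1.46 and a mean of 1.17 ± 0.28 (SD, n = 4; adjusted p = 0.0029, limma). *Mxd4*, which opposes MYC, rose on all 5 of its probes, with 0.40 ± 0.15 on the brightest (adjusted p = 0.0161). *Foxo1* and *foxo3*, which switch on *cdkn1b* in many cells, gave -0.40 ± 0.067 (adjusted p = 0.0086) and -0.43 ± 0.23 (adjusted p = 0.0271). The *foxo3* call stood on 1 of 9 probes, the others reaching up to -0.10. *Myog*, the myogenin gene, gave -0.40 ± 0.11 (adjusted p = 0.0123) on 1 of 2 probes past both thresholds. Without array 3 the calls of *sesn2*, *mxd4*, *foxo1*, *foxo3* and *myog* were lost. Those of *foxo1*, *foxo3* and *myog* were also lost without array 2, and that of *foxo3* without array 4, whereas *egr1* passed each time. With normexp *mxd4*, *foxo1*, *foxo3* and *myog* fell under the fold threshold, at 0.36, -0.32, -0.36 and -0.35.

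The 23 proliferation markers tested all had mean log2 ratios below 0, but few passed the test. Not all cell cycle genes of the other lists were below 0, as *ccna2* was at 0.0048 and *cdkn3* at 0.17. The means of the 23 markers ran from *cdk1*, the kinase of mitosis, at -0.49 ± 0.36 (SD, n = 4) to *mcm3*, part of the replicative helicase, at -0.069 ± 0.24, with a median of -0.21. Arrays 3 and 4 carried these values, since the median over the 23 genes was 0.014, -0.060, -0.48 and -0.38 on arrays 1 to 4. All 23 genes were below 0 on arrays 3 and 4, but 11 on array 1 and 17 on array 2. Lower on all 4 arrays were 9 of the 23, beside 21.0% of all named genes tested. Past both thresholds were 2, about the share of 8.68% among all named genes, namely *cdk1* (adjusted p = 0.0479, limma) and *aurka*, a mitotic kinase (-0.40 ± 0.28, adjusted p = 0.0476). Neither call stood when array 2, 3 or 4 was left out, that of *cdk1* was also lost without array 1, and with normexp *aurka* was at -0.32 (adjusted p = 0.0596).

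**Figure D3:**
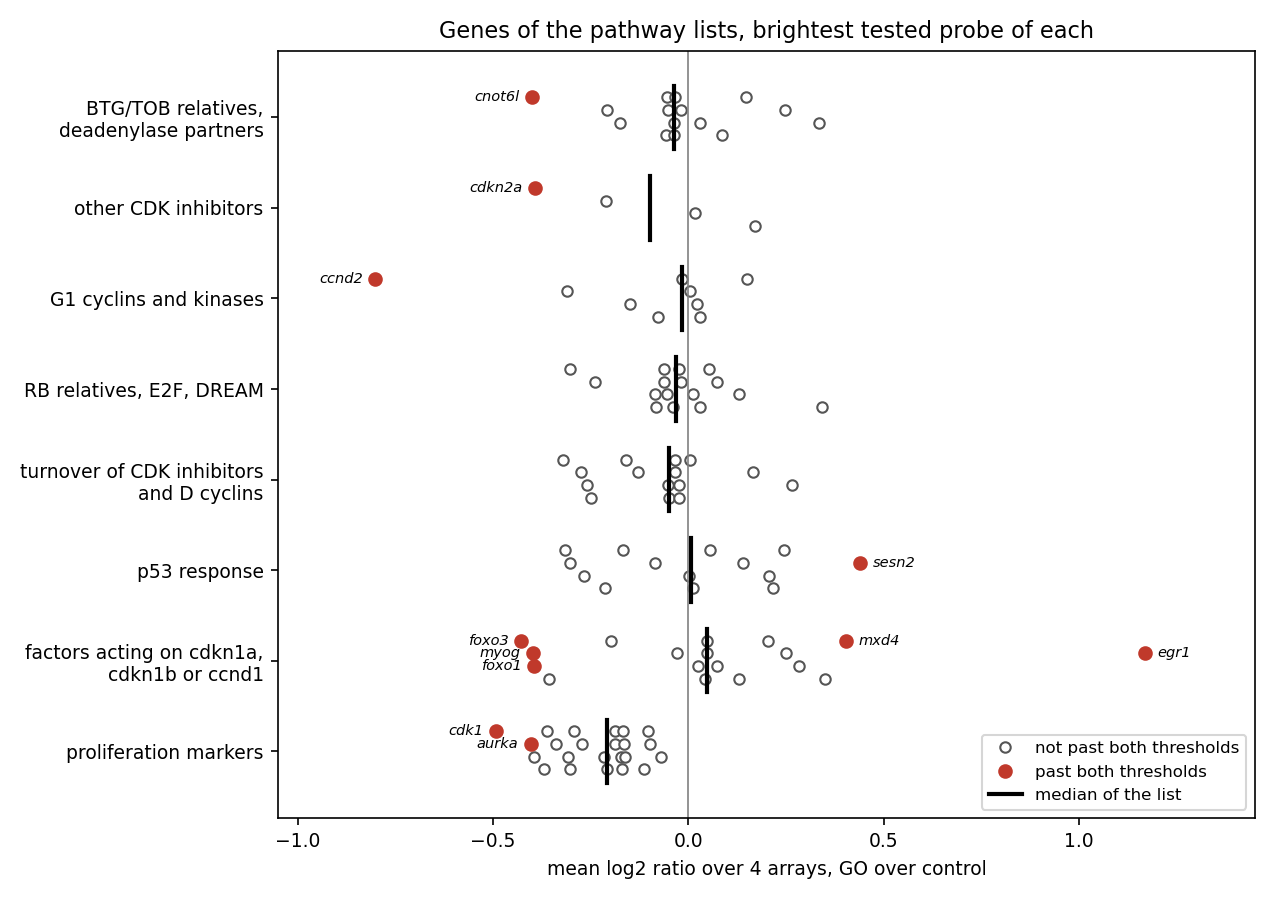
The horizontal axis gives the mean log2 ratio of GO over control on 4 arrays for the brightest tested probe of each gene in the 8 lists, with filled points for genes past both thresholds and black bars for the list medians. Most lists lie around 0, with *ccnd2* at -0.80 and *egr1* at 1.17 as the extremes, while the means of all 23 proliferation markers lie below 0.

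Markers of cell types were read on the same arrays. Of 9 myogenic markers 5 were on the array, all well above background in both channels, and their summed signal was 24967 to 36714 in control cells and 16977 to 23441 in GO-treated cells, without overlap. The sum rests mostly on the brighter markers, as *myog* had only 867 to 1481 and *myod1* 142 to 207 in control cells. Past both thresholds as lower were 4 of the 5 markers, beside 5.37% of all named genes tested. Among these 4 were *myf5* (-0.93 ± 0.045), *ncam1* (-0.63 ± 0.22) and *des* (-0.61 ± 0.24; lost without array 2, and -0.38 with median centring). The 8 fibroblast markers on the array were all detected, and their sums overlapped, at 282117 to 446873 in control cells and 292906 to 404806 in GO-treated cells. On the brightest probe of each, *pdgfra* alone was past both thresholds, higher by 0.87 ± 0.48, and it was lost without array 2 and with normexp, where it was at 0.37 on a control signal of only 21.8 to 46.4. *Postn* went the other way, at -0.47 ± 0.35 and lower on all 4 arrays (adjusted p = 0.0512), with 2 of its 4 probes past both thresholds. Of the 9 *col1a2* probes 2 were past them, while the brightest was at -0.050. A signal well above background on all 4 arrays was found for 0 of 4 adipocyte, 0 of 5 endothelial and 2 of 6 leukocyte markers. The part of a change in the makeup of the cultures in the values of *btg1*, *btg2*, *ccnd3* and the other genes was not tested.

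The genes most like each called gene were found by the smallest Euclidean distance between the 4 log2 ratios, over 9486 named genes. For *btg1* these were *murc* at a distance of 0.067 and a mean of -0.49, *neil3* at 0.088 and -0.51, and *actg2* at 0.094 and -0.47. For *btg2* they were *c18h2orf88* at 0.14 and 0.54, *ldb2* at 0.18 and 0.53, and *aadat* at 0.19 and 0.60. For *ccnd3* they were *c11h17orf59* at 0.12 and -0.46, *pcdhb7* at 0.15 and -0.55, and *flnc*, the muscle filamin, at 0.17 and -0.44. With 4 arrays and so many genes such likeness describes the values only.

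The direction of the 8 genes on their brightest probes was the same with normexp and loess and with median centring as with the values reported. The calls of the brightest *btg1* probe, the brighter *btg2* probe and *ccnd3* stood in both. With normexp and loess probe c of *btg1* fell under the fold threshold, at -0.35, and 6 of the 20 probes passed both thresholds.

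**Figure D4:**
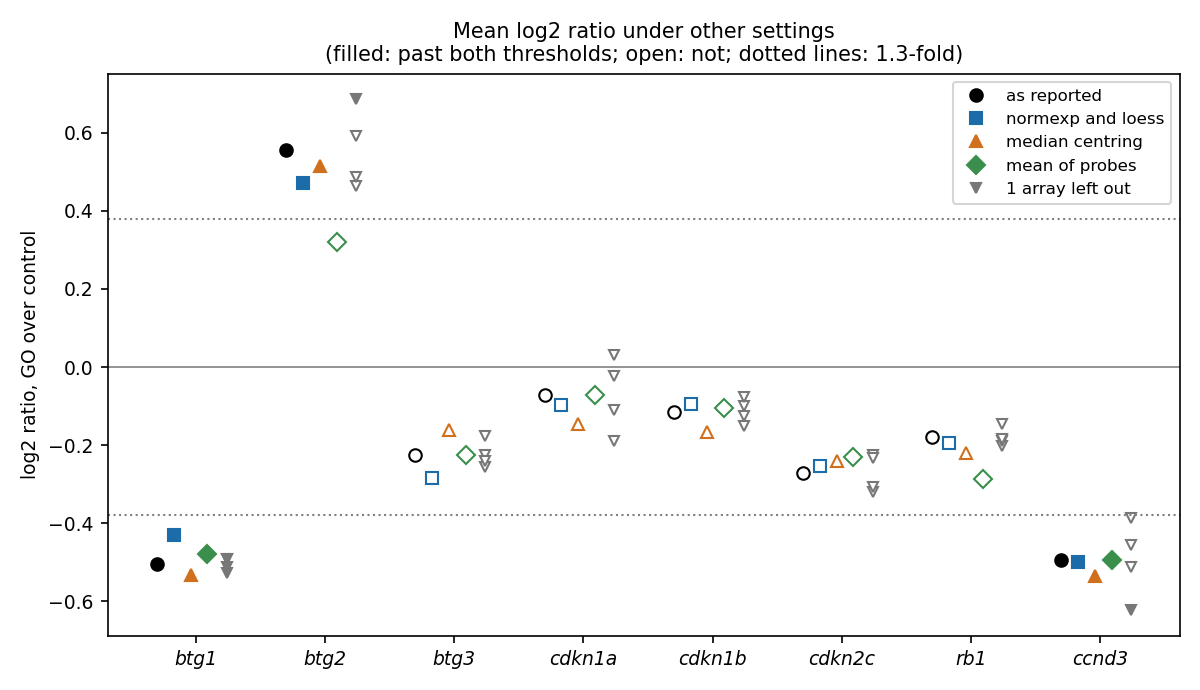
The vertical axis gives the mean log2 ratio of GO over control for the brightest probe of each of the 8 genes as reported, with 2 other normalizations, as the mean of all probes of the gene, and with 1 array left out at a time (filled symbols, past both thresholds; dotted lines, 1.3-fold). *Btg1* is filled throughout at -0.53 to -0.43, whereas *btg2* and *ccnd3* are each filled in 1 of the 4 fits with an array left out.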

How the data were processed

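Per the labels, 4 two-color Agilent horse arrays compared GO-treated (Cy5) with control (Cy3) satellite cells. The authors used Feature Extraction, whose version the headers give as 10.10.1.1. The intensity values they deposited were corrected for background and for dye (linear and lowess), and the deposited log10 ratio is that of the processed Cy5 over Cy3 signal. All 180880 values of the authors' series table equalled those of the array files. Log10 ratios were turned into log2 ratios. Control spots (1417) and 10 to 19 outlier spots per array were dropped, and no spot was saturated. Well above background were 57.4 to 68.9% of noncontrol spots, and the number of arrays limits the precision.

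Probes well above background in either channel on all 4 arrays were tested against 0, two-sided, with limma 3.58.1 in R 4.3.3 and Benjamini-Hochberg adjustment. The methods name no test, and their thresholds were used. With these thresholds the study reported far fewer changed transcripts than the 2399 probes found here. Its list of changed genes holds *btg1* but not *btg2* or *ccnd3*, and it placed *myog* under the fold threshold on the arrays. The brightest probe stood for a gene. Named were all 10 genes of the set, list genes past both thresholds or at the extremes of a list, and the 3 nearest genes of each of the set past both. The genes and lists were chosen with earlier results of these data known. Probe positions (EquCab1) were read from the files, and 447 probes were named by accession and 1684 by gene number through RefSeq (TB-T2T). Alternatives were other normalizations, filters and tests, and leaving out each array.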

Additional observations from a re-analysis of the deposited data

Results flagged for a closer look

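Of the 44 probes whose 4 log2 ratios were searched for an array far from the others, 2 stood out by Dixon's rule, about as many as the 1 in 20 that chance gives. On its brightest probe *foxo3* was at -0.091 on array 1 and between -0.56 and -0.51 on the others. *Cdkn3* was at 0.54 on array 2 and between 0.023 and 0.075 on the others. No probe of the BTG genes, the p21, p27 and p18 genes, *rb1* or *ccnd3* stood out in this way.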

How the results depend on the processing

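The 7 probes, 3 genes, 11 list genes and 2399 probes in all past both thresholds became the following. Normexp with loess gave 1297 probes in all and 3 list genes. Without a filter on dim probes there were 1 gene, 908 probes in all and 3 list genes. The plain one-sample test gave 4 probes, 1 gene, 147 probes in all and 0 list genes. At an unadjusted p under 0.05 it passed 20 list genes and 7556 probes in all. With no replicate block, the channels were taken as separate samples rather than paired within an array. Limma then gave 0 of the 20 probes, 0 of the 8 genes, 370 probes in all and 2 list genes. At an unadjusted p under 0.05 it passed 6 of the 20 probes, 2 of the 8 genes and 3249 probes in all. By the adjusted p alone there were 4859 probes in all and 18 list genes. Leaving out 1 array at a time gave 5 to 8 probes, 1 to 3 genes (1 without array 2, 3 or 4), 1566 to 2430 probes in all (1566 without array 2) and 2 to 9 list genes (2 without array 3, 4 without array 2). The 8 genes kept their direction throughout, except that *cdkn1a* was at 0.032 without array 2 and ranged from -0.19 to 0.032 over the arrays left out. *Btg1* kept its call in 10 of 11 alternatives, *btg2* in 4 and *ccnd3* in 5. With the channels as separate samples the adjusted p was 0.0723, 0.168 and 0.437 for these genes, and without the filter it was 0.128 for *btg2* and 0.147 for *ccnd3*. The same alternatives for the list and marker genes past both thresholds and for the BTG1-like and cyclin D1 probes were added after the data were seen. The cause of these differences was not tested.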
